A study of Caenorhabditis elegans with 9 samples.

Results

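The genes described here encode the filament proteins of muscle and the proteins that anchor filaments to the cell membrane. They are 33 genes for myosins, paramyosin, actins, tropomyosin, titin-like proteins and attachment proteins, with the troponins left out, and they were chosen by gene symbol in the platform annotation. A probe set of its own, one that names no other gene, was found for 31 of the 33, out of 17118 genes measured on the array. For act-1 and act-2, shared probe sets were the only ones. Where a gene had several probe sets of its own, the brightest on average over the 9 arrays stood for it, and the others are given beside it.

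Expression was measured on Affymetrix arrays in L4 larvae, the last larval stage of Caenorhabditis elegans, in 3 strains with 3 arrays each. The strain ogt-1(ok430) has lost the O-GlcNAc transferase, which puts the sugar O-GlcNAc on nuclear and cytoplasmic proteins. The strain oga-1(ok1207) has lost the O-GlcNAcase, which takes that sugar off, and the third strain was the wild type. All larvae were fed, were matched for age by the state of the vulva, and gave whole-animal RNA from 20 hand-picked larvae per array. Body wall, pharyngeal, vulval and other muscles were therefore read together, and fewer muscle cells cannot be told apart from less RNA per cell. The labels call the arrays biological replicates and do not say whether each came from a separate culture. The p-values therefore weigh differences between strains against the spread between these arrays within the 3 strains.

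Body wall muscle of the nematode is obliquely striated. Thick filaments of myosin on a paramyosin core are held at the M-line, and thin filaments of actin and tropomyosin are held at dense bodies, the counterpart of vertebrate Z-discs. Both structures reach the membrane, where integrin joins them through the basement membrane to the cuticle, so that the pull of the filaments moves the animal. The pharynx, the feeding pump, is built with its own myosin heavy chains.

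Signals are log2 values, so a difference of 1 is a factor of 2, and levels of different probe sets cannot be set against each other. A gene was called, and is said to have risen or fallen, when the Benjamini-Hochberg adjusted p of limma over all 22548 probe sets tested was under 0.05 in that comparison, two-sided. The mutated gene ogt-1 read 7.03 ± 0.08 in ogt-1 mutants against 7.90 ± 0.07 in the wild type (SD, n = 3 each; limma adjusted p = 8.87e-05). The mutated gene oga-1 was dim, at 4.93 ± 0.13 in oga-1 mutants against 5.25 ± 0.15 in the wild type (SD, n = 3 each), and was not called (limma adjusted p = 0.223). The spread of signal over probe sets differed between arrays, with an SD of 1.76 to 1.84 in ogt-1 mutants, 1.76 to 1.85 in oga-1 mutants and 1.76 to 1.79 in the wild type. Array 3 of the ogt-1 mutants and arrays 1 and 3 of the oga-1 mutants had an SD above 1.8.

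In ogt-1 mutants, 7 of the 31 genes were called against the wild type, 3 higher and 4 lower. The essential myosin light chain mlc-3, the pharyngeal myosin heavy chain myo-2 and the actin act-4 rose. The nonmuscle myosin light chain mlc-4, the immunoglobulin-repeat protein dim-1, the perlecan unc-52 and the integrin-linked kinase pat-4 fell. The share called, 22.6%, stood beside 18.4% of all genes measured, and beside 31.9% of genes whose probe set lay above the median level. Of the 27 muscle genes above that level, 18.5% were called, a smaller share than that background. Rises made up 9.68% of the muscle genes against a background of 8.65%, and falls 12.9% against 9.72%. The median log2 difference over the 31 genes was -0.13, and over all genes measured it was -0.02. The values lay between -0.78 for pat-4 and 0.70 for mlc-3. Without the 3 arrays of high SD, a setting chosen after the data were seen, 2 genes were higher (mlc-3 and myo-2) and 3 lower (unc-52, pat-4 and the kindlin unc-112).

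**Figure D1:**
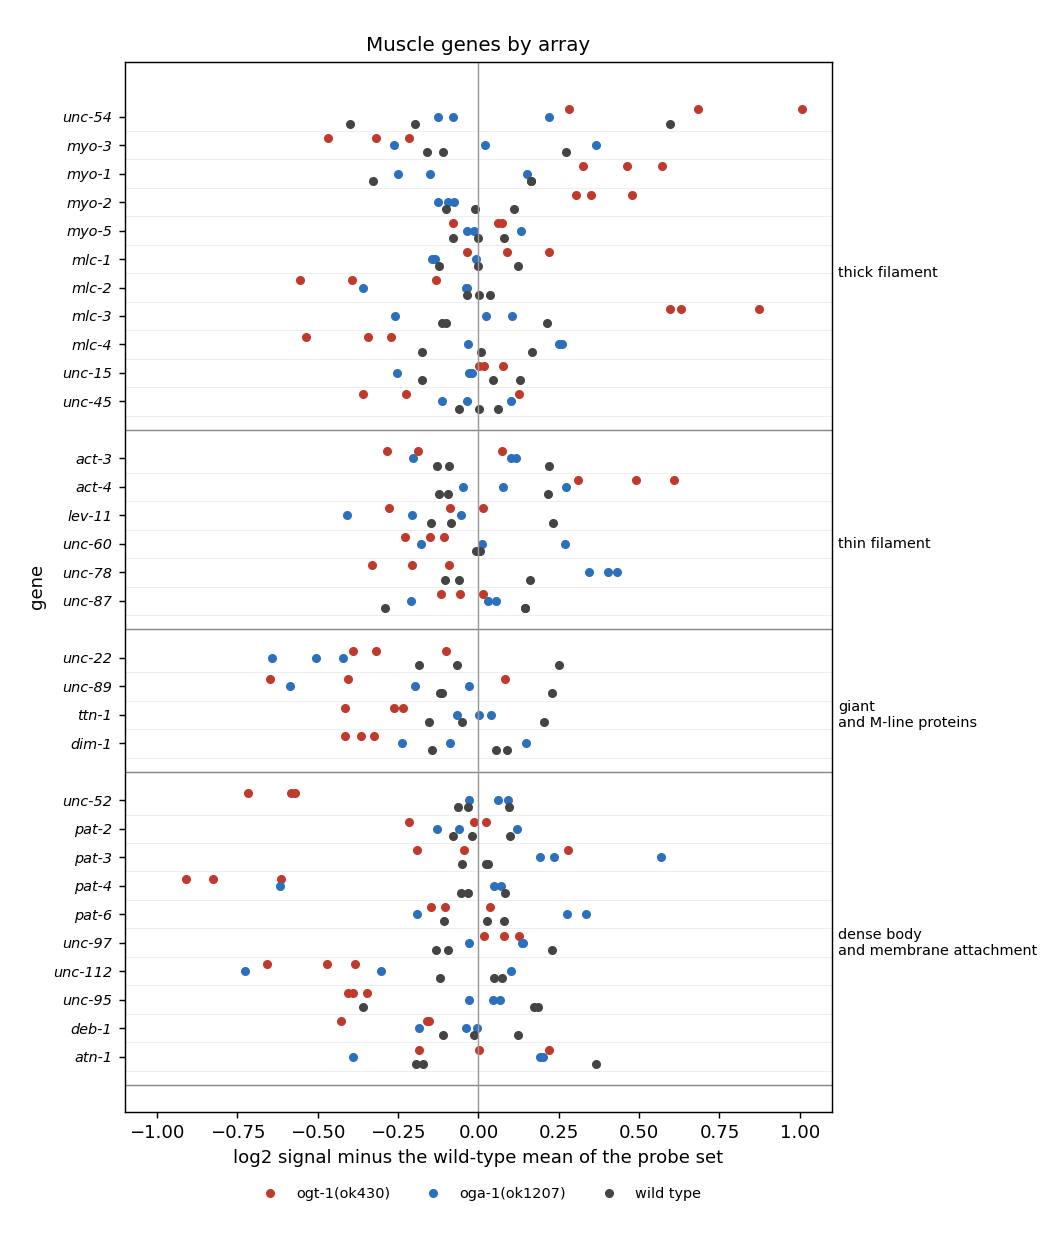
Signal of each of the 31 genes on every array, as the log2 signal minus the wild-type mean of the same probe set (x axis), with genes in rows grouped by role. Each point is 1 array (red ogt-1(ok430), blue oga-1(ok1207), grey wild type, 3 each). The ogt-1 points of mlc-3, myo-2 and act-4 lie to the right of all wild-type points, and those of unc-52 and pat-4 to the left.

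Among the thick filament genes, the light chain mlc-3 had the largest rise in ogt-1 mutants. It is the essential light chain of muscle myosin, which stiffens the lever arm of the head. Its brighter probe set read 12.01, 12.29 and 12.05 in ogt-1 mutants, 11.16, 11.44 and 11.52 in oga-1 mutants, and 11.32, 11.30 and 11.63 in the wild type. All ogt-1 arrays were above all arrays of the other strains. The log2 difference from the wild type was 0.70 ± 0.13 (SE), a 1.62-fold rise (limma adjusted p = 0.00262). The second probe set rose by 0.54 (limma adjusted p = 0.0334). The call of mlc-3 held without any 1 of the arrays compared, with log2 differences between 0.61 and 0.81.

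The regulatory light chains of muscle were not called with mlc-3. The near-identical muscle genes mlc-1 and mlc-2 differed by 0.09 and -0.36 (limma adjusted p = 0.659 and 0.0679), and neither was called. The signal of mlc-2 was 10.34, 10.76 and 10.50 in ogt-1 mutants against 10.90, 10.86 and 10.93 in the wild type, with all ogt-1 arrays lower. Without ogt-1 array 2 it was called, at -0.47 (limma adjusted p = 0.027). The dimmer mlc-2 probe set differed by -0.29 and was not called (limma adjusted p = 0.246). The probe set that names both mlc-1 and mlc-2 read 8.60, 9.06 and 9.10 in ogt-1 mutants against 8.77, 8.86 and 9.17 in the wild type, with overlapping groups. A further probe set, which names mlc-1 together with C36E6.11, read 6.84, 7.20 and 7.34 in ogt-1 mutants against 6.38, 6.51 and 6.65 in the wild type. It rose by 0.61 (limma adjusted p = 0.00638), although mlc-1's own probe set did not pass the test. The coding sequences of mlc-1 and mlc-2 are much alike, and how far each probe set reads RNA of the other gene was not tested. The nonmuscle regulatory light chain mlc-4, which works in cytokinesis and in the elongation of the embryo, read 8.04, 8.31 and 8.24 in ogt-1 mutants, 8.84, 8.83 and 8.54 in oga-1 mutants, and 8.40, 8.59 and 8.74 in the wild type. Its ogt-1 arrays were the lowest of the 9, at a log2 difference from the wild type of -0.38 ± 0.12 (SE; limma adjusted p = 0.0475). That call was kept by leaving out wild-type array 1 alone, and was lost without any other array compared, with an adjusted p of up to 0.167 without wild-type array 3.

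The pharyngeal heavy chains read higher in ogt-1 mutants, and the body wall heavy chains did not share a direction. The pharyngeal myo-2 read 5.52, 5.65 and 5.47 in ogt-1 mutants, 5.07, 5.09 and 5.04 in oga-1 mutants, and 5.16, 5.07 and 5.28 in the wild type. Its ogt-1 arrays stood above the rest, and it rose 1.30-fold against the wild type (log2 difference 0.38 ± 0.09, SE; limma adjusted p = 0.0124). Without array 2 of the wild type the adjusted p was 0.0664, and without array 2 of the ogt-1 mutants it was 0.062. The other pharyngeal chain, myo-1, read 7.04, 6.91 and 7.15 in ogt-1 mutants, 6.43, 6.73 and 6.33 in oga-1 mutants, and 6.74, 6.25 and 6.74 in the wild type. These groups did not overlap either, but the difference of 0.45 ± 0.15 (SE) missed the threshold (limma adjusted p = 0.0554). The dimmer myo-1 probe set, with a difference of 0.44, passed it (limma adjusted p = 0.0116).

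Of 10 measured pharynx markers outside the muscle set, 4 rose in ogt-1 mutants against the wild type and 6 were not called. Of all genes measured, 8.65% rose. Differences were below 0 for 4 of the 10, and the median log2 difference was 0.06. The 4 that rose were the pharyngeal troponins tnc-2 (2.49) and tnt-4 (0.78), the gland gene phat-3 (0.44) and the transcription factor gene peb-1 (0.33). The summed signal of the 10, in log2, lay between 10.1 and 10.3 in ogt-1 mutants, between 8.86 and 9.02 in oga-1 mutants and between 8.91 and 9.13 in the wild type. Much of this sum is tnc-2: without it, a choice made after the data were seen, the other 9 summed to 8.81 to 8.93 in ogt-1 mutants, 8.37 to 8.49 in oga-1 mutants and 8.51 to 8.66 in the wild type. None of the 10 is listed at 0, since the lowest mean level among them was 4.73. The part of pharyngeal tissue in the myo-1 and myo-2 values was not tested.

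The major body wall heavy chain, unc-54, had the widest interval of the 31 genes. It read 10.88, 11.61 and 11.28 in ogt-1 mutants, 10.47, 10.52 and 10.82 in oga-1 mutants, and 10.20, 10.40 and 11.19 in the wild type. Wild-type array 3 stood at the level of the ogt-1 arrays, and the groups overlapped. The log2 difference was 0.66 ± 0.24 (SE), with a 95% confidence interval from 0.14 to 1.18, and was not called (limma adjusted p = 0.0831). Without wild-type array 3 it was 0.96 (limma adjusted p = 0.00538), and without ogt-1 array 1 it was 0.85 (limma adjusted p = 0.0393).

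The second body wall heavy chain, myo-3, which lies at the middle of the filament, pointed the other way. It read 5.79, 6.04 and 5.94 in ogt-1 mutants, 6.62, 5.99 and 6.28 in oga-1 mutants, and 6.09, 6.14 and 6.53 in the wild type. The ogt-1 arrays lay below the wild-type arrays by a narrow margin, and the difference of -0.33 did not pass the test (limma adjusted p = 0.202). Paramyosin, unc-15, forms the core on which myosin packs, and its 3 probe sets differed by 0.03, 0.05 and -0.32, with none called. The myosin chaperone unc-45 differed by -0.15 on its brighter probe set and by 0.17 on its dimmer one, with neither called (limma adjusted p = 0.5 and 0.47). The myosin heavy chain gene myo-5, a dim probe set near 4.68 on average, differed by 0.02 (limma adjusted p = 0.938). Over the 11 genes grouped with the thick filament, 2 rose, 1 fell and 8 were not called, with a median of 0.03. The 1 that fell was the nonmuscle light chain mlc-4. The shares over all genes were 8.65% higher and 9.72% lower.

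**Figure D2:**
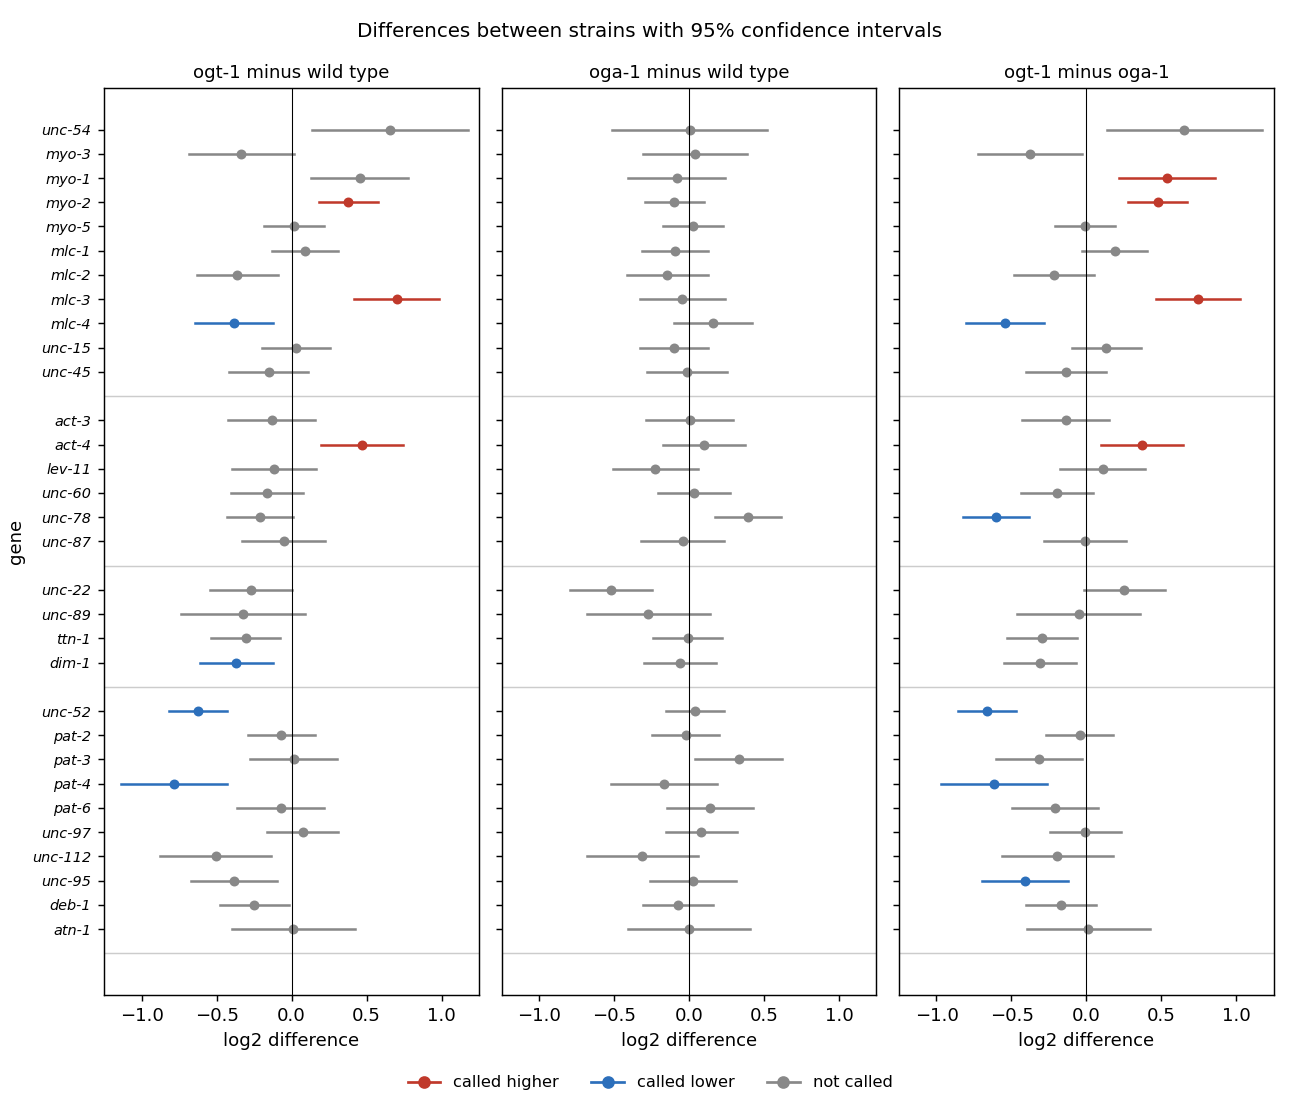
Log2 difference (x axis) of each gene in 3 comparisons, with the 95% confidence interval of the limma fit as a line. Red marks genes called higher, blue genes called lower and grey genes not called. The panel of oga-1 against the wild type is grey throughout, and the other panels show mlc-3 high and unc-52 and pat-4 low.

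Thin filament genes were mostly not called in ogt-1 mutants: of 6 with a probe set of their own, act-4 rose and 5 were not called. Of all genes measured, 8.65% rose. The array has 5 actin probe sets of this gene set, because act-1, act-2 and act-3, which neighbour each other on chromosome V, and act-4 on chromosome X have nearly the same sequence. The probe set of act-4 alone read 12.11, 12.29 and 12.41 in ogt-1 mutants, 12.07, 11.75 and 11.88 in oga-1 mutants, and 11.71, 11.68 and 12.02 in the wild type. Its ogt-1 arrays lay above all others, with a log2 difference from the wild type of 0.47 ± 0.12 (SE; limma adjusted p = 0.0209). Leaving out array 1 or 2 of the wild type, or array 2 or 3 of the ogt-1 mutants, lost the call, at an adjusted p between 0.0678 and 0.0935.

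Probe sets shared by several actins ran against act-4. The brighter of those that name act-1, act-2 and act-3 read 11.99, 12.15 and 12.10 in ogt-1 mutants, 12.71, 12.53 and 12.69 in oga-1 mutants, and 12.25, 12.39 and 12.42 in the wild type. The strains did not overlap there, with ogt-1 mutants lowest and oga-1 mutants highest, although ogt-1 mutants, at -0.27 from the wild type, were not called (limma adjusted p = 0.0694). The dimmer of that pair differed by -0.33 (limma adjusted p = 0.0821). The probe set naming all of act-1 to act-4 fell by 0.29 (limma adjusted p = 0.0432). On the probe set of act-3 alone, at 11.59, 11.68 and 11.95 in ogt-1 mutants against 11.74, 11.78 and 12.09 in the wild type, the groups overlapped (difference -0.13; limma adjusted p = 0.61).

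Control probe sets on the array differed between strains as well. For actin, the 3' end minus 5' end signal, which reads how far the amplified RNA reached, was 4.04 ± 0.12 in ogt-1 mutants, 4.20 ± 0.26 in oga-1 mutants and 4.77 ± 0.05 in the wild type (SD, n = 3 each). The difference of -0.73 in ogt-1 mutants gave p = 0.1 in a two-sided exact permutation test, as did that of -0.57 in oga-1 mutants. This is the smallest p that 3 arrays against 3 allow. The 3' control alone differed by -0.40 in ogt-1 mutants and the middle one by -0.49, while the 5' control differed by 0.33 (exact permutation p = 0.1, 0.1 and 0.2, two-sided). For the Gapdh controls the same 3' to 5' difference was 2.87 ± 0.13 in ogt-1 mutants, 3.12 ± 0.16 in oga-1 mutants and 3.24 ± 0.10 in the wild type (SD, n = 3 each). The mean of the hybridisation controls was 9.38 ± 0.12 in ogt-1 mutants, 9.14 ± 0.11 in oga-1 mutants and 9.11 ± 0.09 in the wild type (SD, n = 3 each). For both, ogt-1 mutants against the wild type gave the smallest possible p of 0.1 (exact permutation test, two-sided). The part of RNA length and of hybridisation in the values of the actins and the other muscle genes was not tested.

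**Figure D3:**
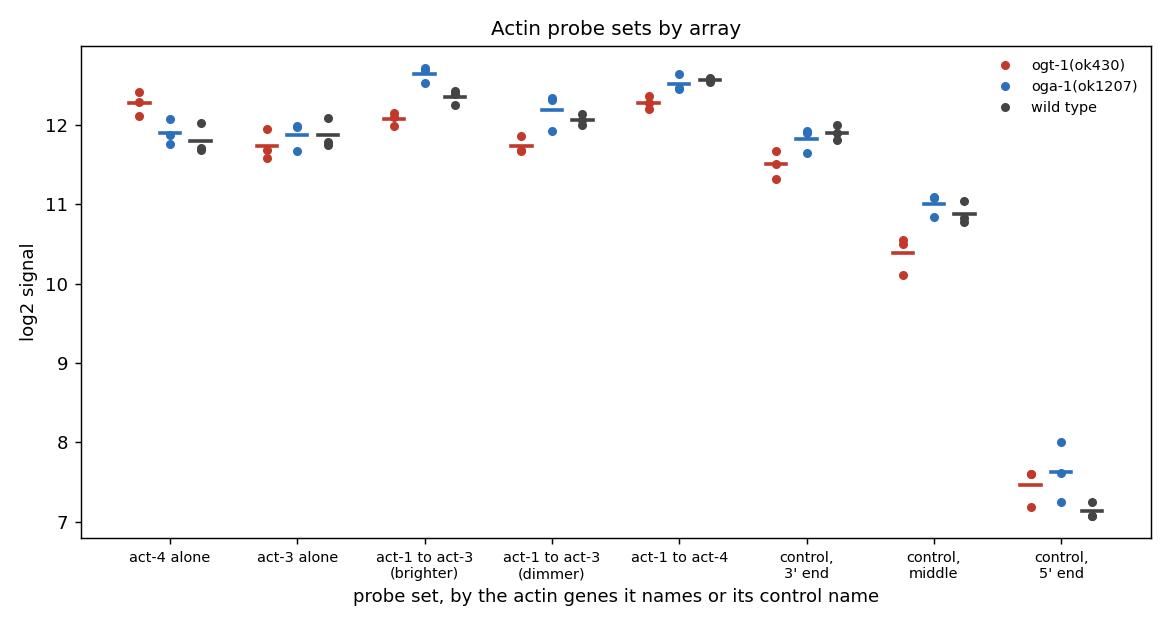
Log2 signal (y axis) of the actin probe sets and of the actin controls for the 3' end, middle and 5' end. Points are arrays and bars are strain means (red ogt-1(ok430), blue oga-1(ok1207), grey wild type, 3 arrays each). The red points are highest on the act-4 probe set and lowest on both probe sets shared by act-1 to act-3.

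Tropomyosin, lev-11, winds along actin and gates the access of myosin, and is made in several isoforms. Its 7 probe sets differed between -0.16 and 0.41 in ogt-1 mutants against the wild type, and none was called in that comparison. The calponin-like unc-87, which stabilises thin filaments, differed by -0.05 on its brightest probe set (limma adjusted p = 0.864). Its dimmer probe sets differed by -0.17 and 0.21, with neither called (limma adjusted p = 0.513 and 0.486). Actin filaments are taken apart by the ADF/cofilin unc-60 and its partner unc-78. The brightest of 5 unc-60 probe sets read 10.95, 10.83 and 10.91 in ogt-1 mutants against 11.05, 11.06 and 11.06 in the wild type. That difference of -0.16 was not called (limma adjusted p = 0.412), but the fourth probe set by brightness fell by 0.42 (limma adjusted p = 0.0179). The gene makes a muscle and a nonmuscle product, and which of them each probe set reads was not analysed here.

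The group of giant and M-line proteins, in which dim-1 was placed, had 4 genes. On their brightest probe sets all 4 had differences below 0 in ogt-1 mutants, as did 9547 of the 17118 genes measured. Of the 4, 1 was called lower, where 9.72% of all genes were. It was dim-1, whose product sits around the dense bodies and keeps the filament lattice in order. It read 10.51, 10.56 and 10.46 in ogt-1 mutants, 10.79, 10.64 and 11.03 in oga-1 mutants, and 10.94, 10.74 and 10.97 in the wild type. The ogt-1 arrays were the lowest of the 9, at a log2 difference from the wild type of -0.37 ± 0.11 (SE; limma adjusted p = 0.0392). The call held without wild-type array 2 and was lost without each other array compared, at an adjusted p of up to 0.126. The second dim-1 probe set had a difference of -0.32 and was not called (limma adjusted p = 0.215). Twitchin, unc-22, a giant kinase of the thick filament, differed by -0.27, the obscurin-like M-line protein unc-89 by -0.32 and the titin-like ttn-1 by -0.30 (limma adjusted p = 0.188, 0.316 and 0.0711). The other 5 ttn-1 probe sets, all dimmer, had differences between 0.03 and 0.21, opposite in sign to the brightest. The dimmer unc-22 probe set differed by 0.03, and the dimmer unc-89 probe sets by -0.18 to 0.02.

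Of the 10 attachment genes, 2 fell in ogt-1 mutants and none rose, with a median of -0.16. Over all genes measured, 9.72% fell and 8.65% rose, so counts this small say little about the group. The gene pat-4 encodes the integrin-linked kinase, which joins the cytoplasmic tail of integrin to the parvin pat-6 and the PINCH protein unc-97. Its brighter probe set read 4.58, 4.66 and 4.88 in ogt-1 mutants, 5.54, 4.87 and 5.56 in oga-1 mutants, and 5.44, 5.57 and 5.46 in the wild type. The ogt-1 arrays were all under the wild-type arrays, and oga-1 array 2 fell among them. The log2 difference from the wild type was -0.78 ± 0.16 (SE), a 1.72-fold fall (limma adjusted p = 0.00545), and it stayed called without any 1 array compared. The dimmer pat-4 probe set had a difference of -0.37 and was not called (limma adjusted p = 0.0916). By their mean over the 9 arrays they lay at percentiles 46.6 and 39.7 of all probe sets. In ogt-1 mutants they averaged 4.71 and 4.69, near the 4.68 of the myo-5 probe set called dim above.

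Perlecan, unc-52, is the basement membrane proteoglycan to which the integrins of body wall muscle attach. Its brightest probe set read 6.48, 6.47 and 6.34 in ogt-1 mutants, 7.02, 7.11 and 7.15 in oga-1 mutants, and 7.15, 6.99 and 7.02 in the wild type. The ogt-1 arrays lay well under all the others, at a log2 difference of -0.62 ± 0.09 (SE), a 1.54-fold fall (limma adjusted p = 5.24e-04), which held without any 1 array compared. The other probe sets of unc-52 did not show it. They differed by -0.02 and -0.05, and a further one, which carries the name unc-52 under 2 gene identifiers, by 0.11, with none called. Which transcripts each of these probe sets reads was not analysed here.

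The partner of pat-4, unc-97, gave the widest disagreement between probe sets of one gene. Its brighter probe set read 7.49, 7.55 and 7.60 in ogt-1 mutants, 7.44, 7.60 and 7.61 in oga-1 mutants, and 7.37, 7.34 and 7.70 in the wild type, and the groups overlapped. The dimmer one read 6.37, 6.81 and 6.67 in ogt-1 mutants, 7.58, 7.29 and 8.16 in oga-1 mutants, and 7.58, 7.29 and 7.74 in the wild type. There all ogt-1 arrays were under all others. The log2 difference from the wild type was 0.07 on the brighter (limma adjusted p = 0.758) and -0.92 ± 0.20 (SE) on the dimmer (limma adjusted p = 0.00677).

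Integrin itself changed on 1 of 4 probe sets. The alpha subunit pat-2 differed by -0.07 and -0.25 (limma adjusted p = 0.768 and 0.12). The beta subunit pat-3, which pairs with it, differed by 0.01 on its brighter probe set and fell by 0.39 on its dimmer one (limma adjusted p = 0.969 and 0.035). The dimmer pat-3 probe set read 5.43, 5.48 and 5.53 in ogt-1 mutants, 5.71, 5.59 and 6.02 in oga-1 mutants, and 5.98, 5.82 and 5.80 in the wild type, so that the ogt-1 arrays were the lowest. The kindlin unc-112, an activator of integrin, read 5.88, 5.69 and 5.96 in ogt-1 mutants, 6.45, 5.62 and 6.04 in oga-1 mutants, and 6.23, 6.42 and 6.40 in the wild type. Its ogt-1 arrays were under the wild-type arrays and within the range of the oga-1 arrays. The dimmer unc-112 probe set differed from the wild type by -0.23 (limma adjusted p = 0.413). The brighter one, whose values are given here, differed by -0.51 and missed the threshold (limma adjusted p = 0.0628). So did the paxillin-related LIM protein unc-95, at -0.38 (limma adjusted p = 0.0696), where wild-type array 1, at 4.64, stood with the ogt-1 arrays, at 4.60 to 4.65, and under the other wild-type arrays, at 5.17 and 5.19. Without wild-type array 1 the unc-95 difference was -0.56 (limma adjusted p = 0.0029). Parvin pat-6, vinculin deb-1 and alpha-actinin atn-1, the last pair being dense body proteins, differed by -0.07, -0.25 and 0.01 (limma adjusted p = 0.815, 0.152 and 0.981). The dimmer deb-1 probe set differed by 0.07 (limma adjusted p = 0.78).

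**Figure D4:**
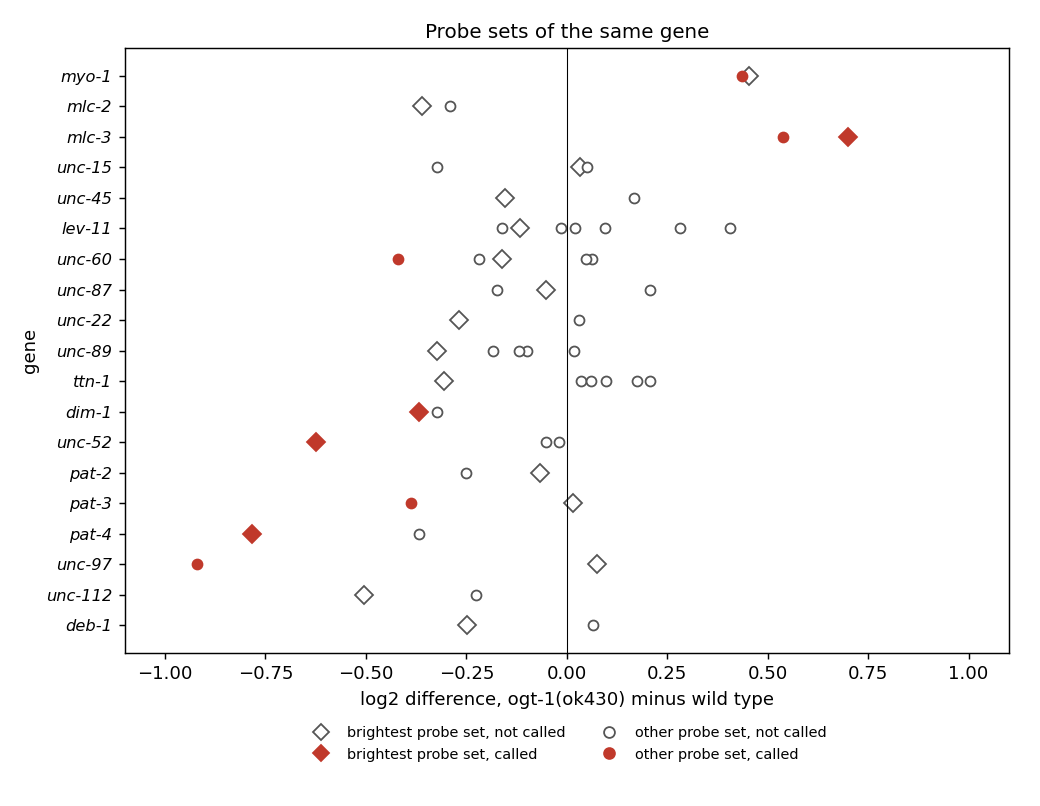
Log2 difference of ogt-1 mutants minus wild type (x axis) for every probe set of the 19 genes that have several. Diamonds are the brightest probe set of a gene, circles the others, and filled red marks a call. The probe sets of mlc-3 lie together on the right, and those of unc-97 lie 0.995 apart.

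Disagreement within a gene was common. Of the 19 genes with several probe sets, 8 had at least 1 called in ogt-1 mutants against the wild type, and mlc-3 was the only one with all of them called. In 4 of the 8, namely myo-1, unc-60, pat-3 and unc-97, a dimmer probe set was called and the brightest was not. No gene had calls in both directions. Over all 68 probe sets that name a single one of the 31 genes, 17.6% were called, against 17.3% of all probe sets. For 14 of the 31 genes no ogt-1 array reached the range of the wild-type arrays, 4 higher and 10 lower. That is 45.2%, where all genes measured gave 33.7%, of which 14.7% higher and 19% lower.

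None of the 31 genes was called in oga-1 mutants against the wild type by limma, where 0.269% of all genes were called. The wild-type arrays are those of the comparison above. At an unadjusted p under 0.05 there were 3, or unc-78, unc-22 and pat-3, and 15.1% of all genes passed that limit. The AIP1 protein unc-78, which works with cofilin, read 7.19, 7.22 and 7.13 in oga-1 mutants against 6.73, 6.69 and 6.95 in the wild type, without overlap. Its log2 difference was 0.39, with a 95% confidence interval from 0.17 to 0.61 (limma adjusted p = 0.132). Twitchin, unc-22, read 6.14, 6.22 and 6.0 in oga-1 mutants against 6.89, 6.46 and 6.58 in the wild type, also without overlap. Its difference was -0.52, with an interval from -0.80 to -0.25 (limma adjusted p = 0.113), and its dimmer probe set differed by 0.05. Both were called when arrays were weighted by quality, at an adjusted p of 0.0385 for unc-78 and 0.0441 for unc-22, and were not called in the other settings run. The median over the 31 genes was -0.02, and the largest values either way were these of unc-78 and unc-22. Groups did not overlap for 9.68% of the muscle genes, against 20.9% of all genes.

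Set against oga-1 mutants, ogt-1 mutants had 9 of the 31 genes called, 4 higher and 5 lower. That is 29% of the muscle genes, where 25% of all genes were called, 10.3% higher and 14.7% lower. Among genes above the median level the shares were 22.2% of the muscle genes and 41.7% of all genes. By probe set they were 20.6% and 23.9%. Arrays did not overlap for 41.9% of the muscle genes, against 36.6% of all genes. This comparison shares its ogt-1 arrays with the one against the wild type. The rises were mlc-3 (0.74), myo-1 (0.54), myo-2 (0.48) and act-4 (0.37), and the falls were unc-52 (-0.66), pat-4 (-0.62), unc-78 (-0.60), mlc-4 (-0.54) and unc-95 (-0.41). For mlc-3, myo-2, unc-52, unc-78 and mlc-4 the call held without any 1 array compared. The second mlc-3 probe set, at 0.45, missed the threshold (limma adjusted p = 0.0588). The other probe sets of unc-52 did not share its fall: they differed by 0.004 and 0.02, and the one under 2 gene identifiers rose by 0.38 (limma adjusted p = 0.0321). For unc-95 it was lost without each of the 6, at an adjusted p of up to 0.112. Without the 3 arrays of high SD, which leaves 1 oga-1 array, 1 gene was called higher (mlc-3) and 3 lower (unc-52, unc-78 and pat-3).

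The calls of myo-1, act-4 and pat-4 between the mutants were lost when any of several arrays was left out. The log2 differences kept their sign without any 1 array compared. They lay between 0.45 and 0.65 for myo-1, 0.30 and 0.46 for act-4, and -0.84 and -0.50 for pat-4. That of myo-1 (limma adjusted p = 0.0197) was lost without ogt-1 array 1 or 3 or oga-1 array 1 or 3, and the dimmer myo-1 probe set, at 0.19, was not called (limma adjusted p = 0.231). That of act-4 (limma adjusted p = 0.0495) was lost without ogt-1 array 2 or 3 or oga-1 array 2 or 3. That of pat-4 (limma adjusted p = 0.0158) was lost without ogt-1 array 1 or 2 or oga-1 array 1 or 3, while its dimmer probe set was called too, at -0.57 (limma adjusted p = 0.00939). Without them the adjusted p reached 0.0783 for myo-1, 0.147 for act-4 and 0.0705 for pat-4.

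For unc-78 the mutants lay on opposite sides of the wild-type mean. The ogt-1 arrays read 6.46, 6.70 and 6.58, under every oga-1 array and overlapping the wild-type arrays given above. The difference between the mutants was -0.60 ± 0.10 (SE; limma adjusted p = 0.00108), while ogt-1 mutants minus the wild type gave -0.21 (limma adjusted p = 0.206). Its partner unc-60 was not called between the mutants on its brightest probe set (-0.20), but fell by 0.60 and 0.46 on its dimmest pair (limma adjusted p = 0.00158 and 0.00715). Both probe sets naming act-1, act-2 and act-3 fell as well, by 0.56 and 0.46 (limma adjusted p = 0.00106 and 0.0138), with the middle actin control at -0.61 (exact permutation p = 0.1, two-sided). The dimmer unc-97 probe set fell by 1.06 (limma adjusted p = 0.00216), again unlike the brighter one, at -0.01. Of the 7 lev-11 probe sets 1, among the dimmer ones, rose by 0.36 (limma adjusted p = 0.0345). The brightest lev-11 probe set, at 0.11, was not called (limma adjusted p = 0.632).

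Of 32 other muscle structure genes 3 rose and 3 fell in ogt-1 mutants against the wild type, beside the shares of 8.65% higher and 9.72% lower over all genes. Their median was -0.12. The profilin pfn-2 (0.61) and the calponin-related cpn-3 (0.42) were among the risers, and the profilin pfn-1 (-0.94) and talin, tln-1 (-0.58), which links integrin to actin, among those that fell. Throughout, genes outside the set are given by their brightest probe set alone. Some have others, as tln-1 with 6 in all, and those are not given. Of 18 genes for muscle excitation and calcium, 1 fell, the potassium channel regulator unc-93 (-0.48), and none rose. Body wall muscle markers outside the set, 8 in number, included 1 rise, that of the troponin C pat-10 (0.45), and 2 falls, those of the troponins unc-27 (-0.87) and mup-2 (-0.61). The summed log2 signal of these 8 was 13.73 to 13.91 in ogt-1 mutants, 13.61 to 13.77 in oga-1 mutants and 13.42 to 13.67 in the wild type. That sum is mostly pat-10, and over the 8 genes 5 differences were below 0, with a median of -0.10. Without pat-10, a choice made after the data were seen, the other 7 summed to 10.37 to 10.65 in ogt-1 mutants, 10.94 to 11.37 in oga-1 mutants and 10.95 to 11.30 in the wild type. There the ogt-1 arrays were the lowest, and the part of body wall muscle content in the values above was not tested. Of 10 genes listed as muscle transcription factors, among them also the receptor gene egl-15, 1 rose, the pharyngeal peb-1 given above. In oga-1 mutants none of these genes was called against the wild type.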

How the data were processed

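Each array measured RNA of 20 whole larvae, amplified by T7 transcription and labelled with biotin, per the labels' protocols. The values are log2 signals per probe set as the authors deposited them, already on a common scale, since every array has a mean of 5.91. The submitters' processing notes name MAS5, RMA and Partek, and which of them made the table, and the genome build, are not given in the sources used here. Depth has no meaning for arrays, and the 3 arrays per strain limit the precision, with standard errors of a difference of 0.12 at the median of the muscle genes. Control probe sets (77) were left out of the tests. Of the 22548 others, 20766 named 1 gene, 887 several and 895 none, with symbols updated through gene identifiers to RefSeq's table.

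One linear model per probe set, over all 9 arrays and with no term but strain, was fitted by limma 3.58.1 (R 4.3.3; 6 residual degrees of freedom), and the fit was tested on simulated data. No filter on signal was used, and no sequences were used here. The genes and lists were chosen with earlier results of these data known. All genes of the set are named, and from each other list at most 2 called genes per direction and comparison, by smallest p. Where a list had 5 or fewer called genes, others of them were named after their values were seen: tnt-4 and peb-1 among the pharynx markers and nmy-1, against the wild type. Same-numbered arrays of different strains correlated at -0.17 to 0.24 in their deviations from the strain mean, so they were taken as unpaired. Alternatives were other normalizations, filters, variance models, weights, thresholds and probe set choices, a replicate block, and leaving out each array.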

Additional observations from a re-analysis of the deposited data

How the results depend on the processing

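The 12 counts and medians were recomputed in each alternative. Leaving out 1 array at a time gave, for ogt-1 mutants against the wild type, 2710 to 3414 called probe sets in place of 3891, 1 to 5 muscle genes higher in place of 3, 2 to 4 lower in place of 4 and a median of -0.18 to -0.03. Between the mutants the ranges were 3827 to 5581 probe sets (5381), 2 to 4 genes higher (4), 3 to 7 lower (5) and a median of -0.20 to -0.036, and for oga-1 mutants 9 to 70 probe sets (58), 0 genes either way and a median of -0.08 to 0.03.

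Against the wild type in ogt-1 mutants, 2 genes were lower after median centring (mlc-4 and dim-1 were lost), 5 were higher with array weights, 5 higher and 8 lower at an adjusted p under 0.1, 1 higher and 2 lower (2052 probe sets) with a 1.5-fold minimum, and 2 lower with the mean over a gene's probe sets. Taking the dimmest probe set of a gene gave -0.39 for pat-3 and -0.92 for unc-97, both called lower, and 0.023 for unc-52 between the mutants. Between the mutants, 3 genes were lower among probe sets above the median level, since fewer were tested, 1 was higher and 3 lower (2664 probe sets) with a 1.5-fold minimum, and 2 were higher with the dimmest probe set. The median there was -0.069 after quantile normalization, -0.018 with the mean over probe sets and -0.067 with the dimmest. For oga-1 mutants the called probe sets were 91 after quantile normalization, 94 with a trend and robust variance, 848 with array weights (1 muscle gene higher and 1 lower) and 198 at an adjusted p under 0.1. The called 43 higher and 15 lower probe sets became 50 and 41 after quantile normalization.

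Chosen after the data were seen, the SD of each array as a covariate gave 9 genes lower in ogt-1 mutants against the wild type, a median of -0.042 between the mutants and 13 probe sets in oga-1 mutants. Leaving out the 3 arrays of SD above 1.8, which leaves 1 oga-1 array that is assumed to vary like the others, gave 3 probe sets in oga-1 mutants, and 2544 probe sets, 1 gene higher, 3 lower and a median of -0.035 between the mutants. With the replicate block 4 genes were higher and 3 lower in ogt-1 mutants against the wild type, with unc-54 called (limma adjusted p = 0.0301) and mlc-4 not (limma adjusted p = 0.0555), and 5 higher and 5 lower between the mutants; 3 of 9 arrays correlated best with an array of their own number. Apart from cases whose construction is named, the cause was not tested.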

Other observations

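Nonmuscle counterparts of these genes fell in ogt-1 mutants where they were called. Against the wild type, 9.72% of all genes fell in ogt-1 mutants and 8.65% rose. Of 15 nonmuscle myosin and actin genes, 3 fell against the wild type and 0 rose: the intestinal actin act-5 and the nonmuscle myosin heavy chains nmy-2 and nmy-1, partners of the light chain mlc-4 in cytokinesis and embryonic elongation. The brighter nmy-2 probe set read 10.42 ± 0.18 in ogt-1 mutants against 11.15 ± 0.10 in the wild type (SD, n = 3 each; limma adjusted p = 0.00432). Of 12 germline markers, which stand for a tissue rich in nmy-2, 5 fell and 0 rose in ogt-1 mutants against the wild type. Their summed log2 signal was 12.23 to 12.52 in ogt-1 mutants, 12.94 to 12.97 in oga-1 mutants and 12.87 to 13.02 in the wild type, and their part in these falls was not tested. Of 11 intestine markers, act-5 fell and 3 rose (cpr-1, elt-7 and, named after its value was seen, ges-1), and their summed log2 signal was 14.47 to 14.69 in ogt-1 mutants, 14.21 to 14.37 in oga-1 mutants and 14.12 to 14.32 in the wild type. Of 12 neuron markers 1 rose, sbt-1, and the sum was 11.09 to 11.42 in ogt-1 mutants, 10.80 to 10.87 in oga-1 mutants and 10.79 to 10.89 in the wild type. Each sum adds unlogged signals, so a bright gene can carry much of it. In ogt-1 mutants against the wild type, cpr-1 read 13.08 against 11.73, sbt-1 10.07 against 8.72 and the germline marker glh-1 11.10 against 11.97. The median log2 difference was 0.18 over the intestine markers, 0.07 over the neuron markers and -0.22 over the germline markers.

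Basement membrane genes beside unc-52 went both ways. Over all genes, 8.65% rose and 9.72% fell in ogt-1 mutants against the wild type, and 10.3% rose and 14.7% fell against oga-1 mutants. Of 12 measured, 1 rose in ogt-1 mutants against the wild type, the laminin gamma chain lam-2 (0.59; limma adjusted p = 0.00262), and 2 fell, the laminin beta chain lam-1 (-0.49; limma adjusted p = 0.00169) and the fibulin fbl-1 (-0.37; limma adjusted p = 0.0492). Against oga-1 mutants 2 rose and 4 fell, among them the nidogen nid-1 (-0.93; limma adjusted p = 0.00216) and the SPARC protein ost-1 (-1.02; limma adjusted p = 0.00324).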
